A study of Caenorhabditis elegans with 9 samples.

Results

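The neuropeptide-like protein (nlp) genes of Caenorhabditis elegans are described here by the open chromatin assigned to them in L1 arrest larvae and in embryos. They were chosen as every gene whose symbol in the deposited gene tables starts with nlp-, which gave 30 of the 11435 genes in those tables. The tables list genes by their noncoding DNase I hypersensitive sites (DHS), stretches where the enzyme cuts chromatin readily and which often mark a regulatory element, so each of the 30 has at least 1 by the way it was chosen. Together they held 35 of the 16084 noncoding DHS of L1 arrest and 53 of the 26644 of the embryo.

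The nlp genes encode precursor proteins that are cut into short peptides, packed into dense-core vesicles and released to act on receptors of other cells. Beside the FMRFamide-like (flp) and insulin-like (ins) genes they form the most mixed of the worm's peptide gene families, since they are grouped by not belonging to the other classes. Most members are made in neurons. One group, nlp-24 to nlp-34, includes epidermal genes for antimicrobial-like peptides, of which nlp-29 is induced by fungal infection and by wounding.

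DNase-seq was done on nuclei of the wild-type strain N2, from larvae held at L1 arrest (5 biological replicates) and from embryos of about 40 cells (4 biological replicates), per the labels. L1 arrest is the halt in development of larvae that hatch without food. Of several DNase I levels per sample, the one that most enriched known Hox enhancers (lin-39/ceh-13) went into the library, per the series design text. Both groups share the strain and differ by stage. Only the larvae were held in arrest, so stage, arrest and lack of food cannot be told apart. The deposited lists merge the replicates of a stage, so each value below is 1 value per stage, with no spread between replicates and no test of a difference. Intervals are exact 95% binomial (Clopper-Pearson) intervals, which cover counting error only and treat DHS as independent, although DHS of 1 gene are linked. Depth is not given in the lists. L1 arrest had 23670 DHS in all and the embryo 41825, so equal numbers of sites are not the baseline of any count.

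Noncoding DHS were listed for 22 of the 30 nlp genes in L1 arrest, which is 73.3% (interval 54.1 to 87.7) against 71.7% of all genes in the tables. In the embryo 29 of the 30 were listed, which is 96.7% for the nlp genes and 96.7% for all genes. Both stages listed 21 nlp genes (70.0%, against 68.4% of all genes). L1 arrest alone listed nlp-20 (3.33%, against 3.32%), and the embryo alone listed 8 (26.7%, against 28.3%). By presence in a stage the nlp genes were thus spread much as genes in general. Nuclei came from whole animals, so a site open in fewer cells and a site less open in each cell cannot be told apart.

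By number of DHS, 5 nlp genes had more in L1 arrest than in the embryo, which is 16.7% (interval 5.64 to 34.7) against 7.35% of all genes. They were nlp-1, nlp-6, nlp-20, nlp-29 and nlp-38, each with 1 DHS more. Equal numbers were found for 11 (36.7%, against 32.2%), and 14 had more in the embryo (46.7%, against 60.4%). The interval of the first share includes the share of all genes at its lower part.

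**Figure D1:**
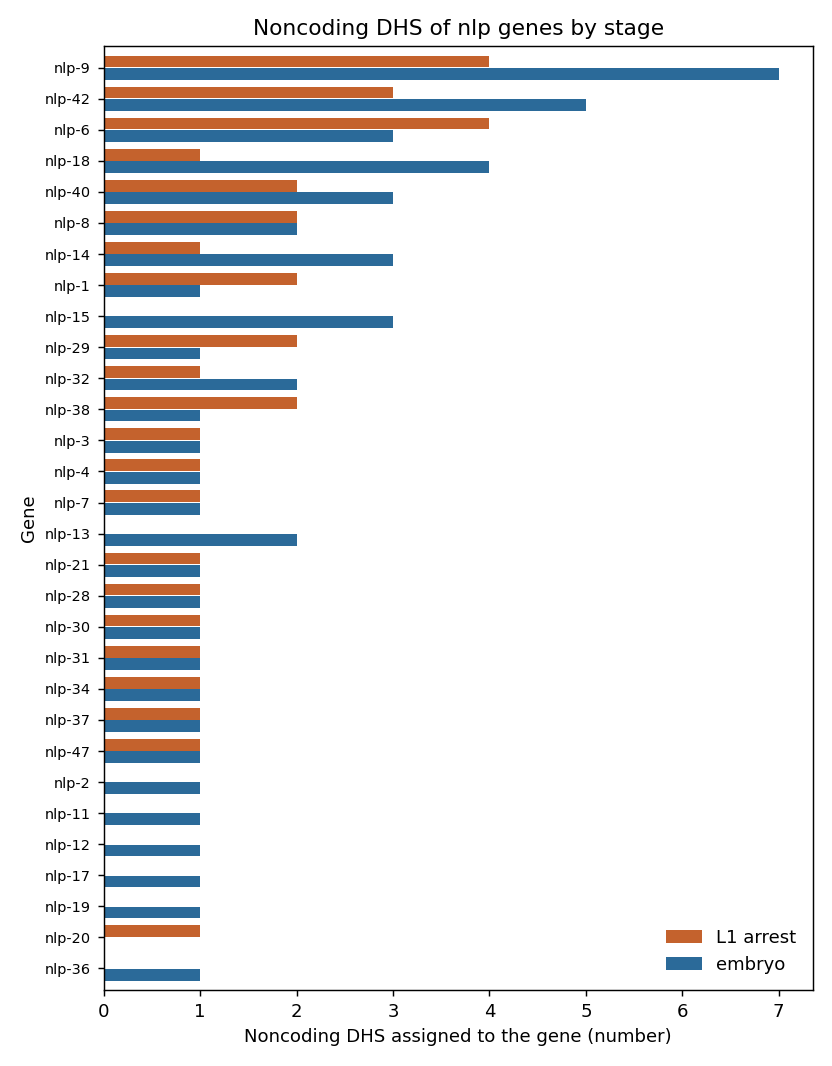
Number of noncoding DHS assigned to each of the 30 nlp genes (horizontal axis) in L1 arrest (orange) and in the embryo (blue), each bar from 1 merged list per stage. The gene nlp-9 has the longest pair of bars, 4 in L1 arrest and 7 in the embryo, and nlp-20 is the one gene with an L1 arrest bar and no embryo bar.

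The DHS were unevenly spread among the genes. The gene nlp-9 had 4 DHS in L1 arrest and 7 in the embryo, the most of the family. Its L1 arrest sites lay 0, 1194, 1754 and 2494 bp from the gene, all outside introns. The embryo had sites at 0, 1194, 1834, 2494 and 5454 bp and 2 intron pieces of 26 and 49 bp, which were left from 1 DHS (V:4220341-4220490) when its exon part was removed. The 4 L1 arrest sites each overlapped an embryo site, so the gene's stage difference came from the site at 5454 bp and the intron pieces.

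The gene nlp-42, which current RefSeq names mihp-2, had 3 DHS in L1 arrest and 5 in the embryo. Its L1 arrest sites lay 580, 1940 and 2260 bp away, and each had an embryo counterpart, at 560, 1940 and 2260 bp. The embryo added a site at 20 bp (V:18906221-18906370) and an intron piece of 56 bp. For nlp-6, which encodes allatostatin A-like peptides, the order was the other way, with 4 DHS in L1 arrest and 3 in the embryo. Shared sites lay at 0 bp, farther out (1984 bp in L1 arrest and 2004 bp in the embryo) and at 4829 bp, and L1 arrest added an intron piece of 80 bp.

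Smaller sets followed. The gene nlp-18, whose peptides are ligands of the cholecystokinin-type receptor CKR-1, had 1 DHS in L1 arrest and 4 in the embryo. Its shared site lay 117 bp from the gene, and the embryo had another at 2717 bp and 2 intron pieces of 43 and 49 bp cut from 1 DHS (II:11030061-11030210). The gene nlp-40, whose peptide is released from the intestine to time defecation through the receptor AEX-2, had 2 DHS in L1 arrest and 3 in the embryo. Both of its L1 arrest sites were intronic and shared, and the embryo added a site 79 bp from the gene.

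The orcokinin-like genes nlp-14 and nlp-15 both had more sites in the embryo. There was 1 DHS for nlp-14 in L1 arrest, 52 bp from the gene, and 3 in the embryo, where the same site and 2 intron pieces were listed. For nlp-15 no DHS was listed in L1 arrest and 3 were listed in the embryo. The gene nlp-8, an ALA neuron peptide gene linked to stress-induced sleep, had 2 DHS in L1 arrest and 2 in the embryo. One DHS per stage was listed for nlp-3 and nlp-7, which modulate egg laying, for nlp-37 (the PDF-like gene now named pdf-2) and for nlp-47, which encodes a gonadotropin-releasing-hormone-like peptide. Of other members with a described role, nlp-10, nlp-22 and nlp-49 had no entry under those symbols in either table.

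Close sites made up much of the L1 arrest set. In L1 arrest 12 of 35 nlp DHS lay outside introns and under 300 bp from the gene, called promoter sites below, which is 34.3% (interval 19.1 to 52.2) against 18.8% of all noncoding DHS. In the embryo 14 of 53 did, 26.4% (interval 15.3 to 40.3) against 19.2%. The tables give no side, so a promoter site may lie beyond either end of the gene. The lower end of the L1 arrest interval lay just above the share of all DHS, and the embryo interval included it. Without nlp-24 to nlp-34 the L1 arrest share was 35.7% (interval 18.6 to 55.9). With genes that RefSeq now gives an nlp- symbol added, it was 28.1% (17.6 to 40.8). Both of these intervals include 18.8%, so the separation from all DHS in L1 arrest depended on the set of genes.

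Intron sites were the reverse. In L1 arrest 6 of 35 nlp DHS were intronic, 17.1% (interval 6.56 to 33.6) against 40.4% of all. In the embryo 19 of 53 were, 35.8% (interval 23.1 to 50.2) against 43.8%. Sites 300 bp or more away made up 17 of 35 in L1 arrest (48.6%, against 40.8%) and 20 of 53 in the embryo (37.7%, against 37.0%). The L1 arrest interval lay below the share of all DHS, and the embryo interval included it.

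Most nlp intron entries were narrow. Of the nlp intron entries, 5 of 6 in L1 arrest (83.3%, interval 35.9 to 99.6, against 35.1% of all intron entries) and 16 of 19 in the embryo (84.2%, interval 60.4 to 96.6, against 45.9%) were under 150 bp, the usual width of a called site. Over all widths and classes, 9 of 35 nlp entries in L1 arrest (25.7%, against 20.6% of all) and 19 of 53 in the embryo (35.8%, against 27.1%) were under 150 bp. The full-width intron sites of the family were 1 in L1 arrest, at nlp-40, and 3 in the embryo, at nlp-11, nlp-15 and nlp-40.

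**Figure D2:**
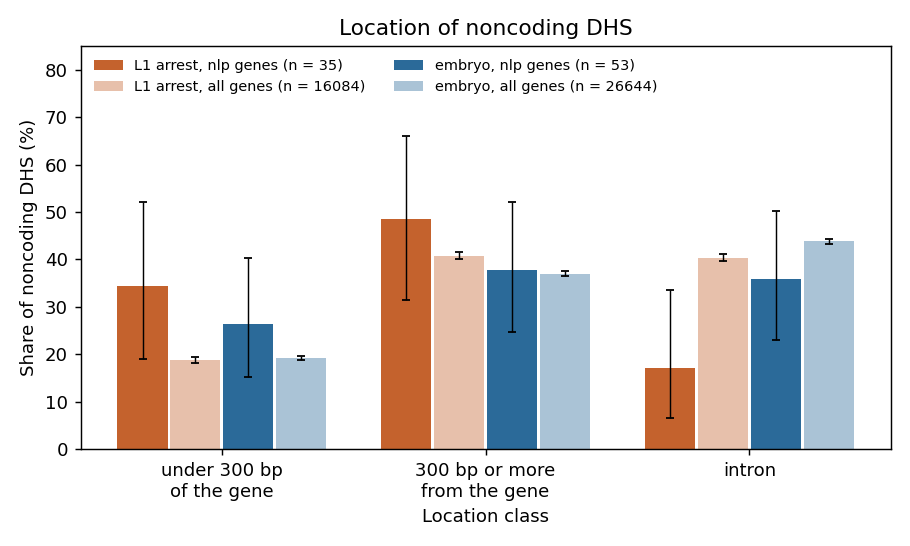
Share of noncoding DHS (percent, vertical axis) in 3 location classes for the nlp genes and for all genes, in L1 arrest and in the embryo; error bars are exact 95% binomial intervals. In L1 arrest the promoter bar of the nlp genes stands at 34.3% against 18.8% for all genes, and the intron bar at 17.1% against 40.4%.

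Outside introns the median distance to the gene was 580 bp over 29 nlp DHS in L1 arrest (interval of the median 141 to 1598), against 846 bp over all genes. In the embryo it was 677 bp over 34 (117 to 1834), against 768 bp. Distances reached 4829 bp at nlp-6 in L1 arrest and 5454 bp at nlp-9 in the embryo. Both intervals include the value of all genes.

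**Figure D3:**
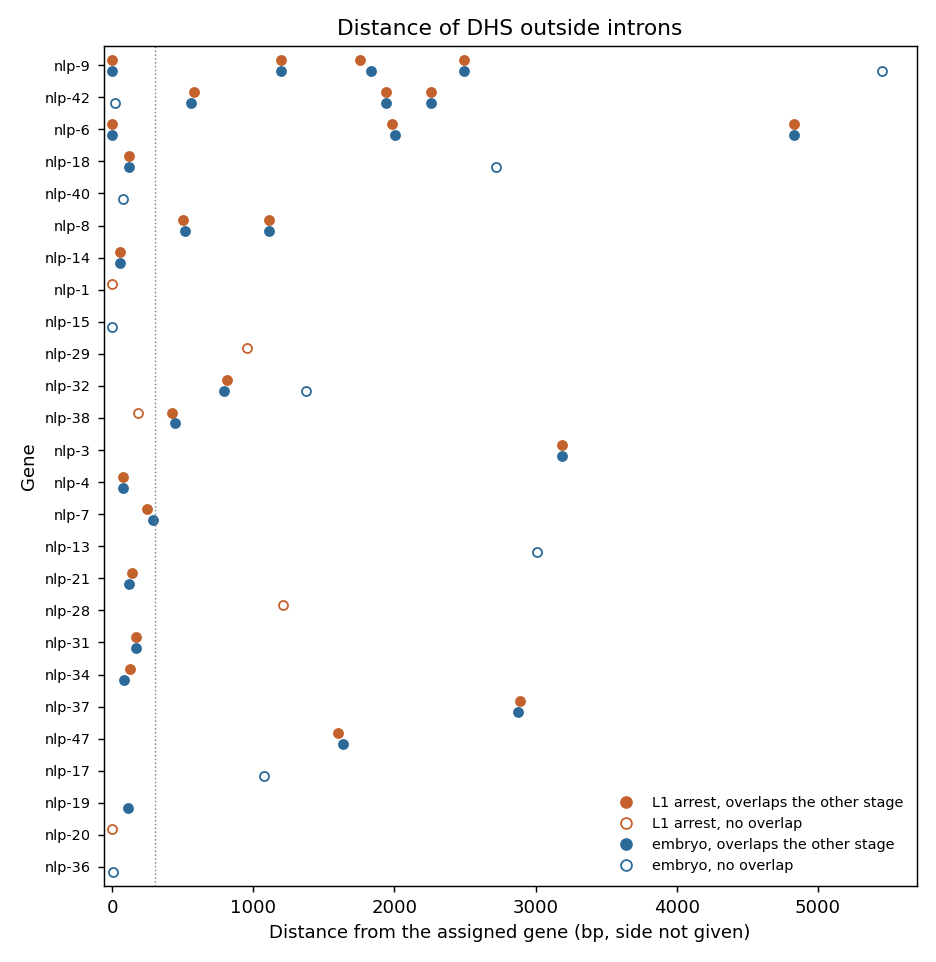
Distance in bp of each nlp DHS outside introns from its gene (horizontal axis), by gene, in L1 arrest (orange) and in the embryo (blue); filled points overlap a noncoding DHS of the other stage, open points do not, and the dotted line marks 300 bp. Filled points come as pairs at nearly the same distance, for example at 1940 and 2260 bp for nlp-42, and nlp-19 has a filled embryo point alone because its L1 arrest partner is assigned to a neighbouring gene.

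Most nlp sites of L1 arrest were also open in the embryo. Of the 35 L1 arrest sites 29 overlapped an embryo noncoding DHS by at least 1 bp, 82.9% (interval 66.4 to 93.4) against 88.6% of all. Of the 53 embryo sites 30 overlapped an L1 arrest one, 56.6% (interval 42.3 to 70.2) against 53.5% of all. The lists differ in length. With the embryo list reduced by score to the number of L1 arrest sites, the share was 68.6% for the nlp sites of L1 arrest, against 76.0% of all, and 89.3% for those of the embryo, against 76.0% of all. For the nlp genes, which stage had the higher shared share thus depended on list length.

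In the embryo the shared share differed by class. It was 5 of 19 for intron entries (26.3%, interval 9.15 to 51.2, against 47.9% of all intron entries). For promoter sites it was 10 of 14 (71.4%, interval 41.9 to 91.6, against 53.6%). For distant sites it was 15 of 20 (75.0%, interval 50.9 to 91.3, against 60.0%). In L1 arrest it was 5 of 6 for intron entries (83.3%, against 86.1%), 9 of 12 for promoter sites (75.0%, against 90.8%) and 15 of 17 for distant sites (88.2%, against 90.0%). Among sites of full width 23 of 26 in L1 arrest were shared (88.5%, against 90.2%) and 24 of 34 in the embryo (70.6%, against 59.5%). The intervals of all these class and full-width shares include the share of all DHS of that kind. Of the 23 nlp entries of the embryo that were not shared, 14 were intronic, against 49.1% of all unshared embryo entries. Intron entries under 150 bp made up 12 of the 23, against 28.5% of all.

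The 6 L1 arrest sites with no embryo overlap were the ones in the authors' deposited list of arrest-associated DHS, which held 11.4% of all L1 arrest noncoding DHS and 17.1% (interval 6.56 to 33.6) of the nlp ones. They fell to 6 genes, 27.3% of the 22 listed in L1 arrest (interval 10.7 to 50.2), against 18.7% of all listed genes. Both intervals include the background. The share of 17.1% is the remainder of the shared 82.9% given above, and 11.4% that of 88.6%, so it is not a separate result. None of the 6 overlapped any embryo DHS, exonic ones included.

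The strongest of them stood at nlp-38, which encodes myoinhibitory-like peptides and is now named mihp-1 by RefSeq. It lay 182 bp from the gene at I:13404281-13404430 (ce10), with a deposited score of 649, the 94.5th percentile of L1 arrest noncoding DHS, and 4 footprints. The nearest embryo DHS was 110 bp away, and it was the embryo partner of the gene's other L1 arrest site. That other site (I:13404521-13404670, 422 bp from the gene) stood at the 92.2nd percentile in L1 arrest, against the 56.3rd for its embryo partner. Both nlp-38 sites therefore ranked near the top of L1 arrest, beside 1 embryo site near the middle of its list.

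At nlp-20 the L1 arrest site touched the gene (0 bp, IV:7641941-7642057), stood at the 58.3rd percentile and held 3 footprints, with the nearest embryo DHS 1050 bp away. At nlp-1, whose peptide is released by the AWC olfactory neurons, it also touched the gene (X:3727461-3727574) but stood at the 8.73rd percentile, 346 bp from the nearest embryo DHS. At nlp-6 it was the intron piece of 80 bp (X:17663521-17663600), at the 16.7th percentile and with no footprint. These ranks ran from near the bottom to the middle of the list, all well under nlp-38.

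The other 2 belonged to the epidermal group, at nlp-29 (V:3985801-3985950, 952 bp, 45.7th percentile) and nlp-28 (V:3986541-3986690, 1211 bp, 51.7th percentile). Both held 2 footprints, and the nearest embryo DHS lay 1090 bp and 1370 bp away. RefSeq lists nlp-29 and nlp-28 as direct neighbours, so these sites lie in the same stretch of chromosome V.

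Of the 8 genes listed in the embryo alone, nlp-15 held the strongest site. It touched the gene (I:12988101-12988231) with a deposited score of 748, the 95.2nd percentile of embryo noncoding DHS, 4 footprints and no L1 arrest DHS within 3270 bp. The other embryo sites without any L1 arrest overlap at nlp-11, nlp-12, nlp-13, nlp-17 and nlp-36 ranged from the 13.8th to the 52.7th percentile. The intron sites of nlp-15 itself stood at the 11.7th and 34.3rd percentiles. The entries of nlp-2 and nlp-19, which overlapped L1 arrest DHS of another kind or gene, stood at the 48.0th and 65.5th.

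At some of the other genes listed in the embryo alone, L1 arrest sites lay close by or under another assignment. The embryo DHS of nlp-19, 113 bp from the gene, overlapped an L1 arrest DHS that the L1 table assigned to the next gene, K09C8.2. The intron piece of nlp-2, an RPamide-family gene, overlapped an L1 arrest DHS that was exonic and thus not in the noncoding list. Entries assigned to several genes were 0 of 35 for nlp in L1 arrest (0%, against 0.709% of all) and 2 of 53 in the embryo (3.77%, against 0.829%). These were the nlp-2 entry, shared with T01B6.1, and that of nlp-12, a cholecystokinin-like peptide gene of the DVA neuron, shared with emr-1. At nlp-17 the nearest L1 arrest DHS was 110 bp away.

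Ranks within each stage's own list placed the family near the middle. The median percentile was 53.3 over 35 nlp DHS in L1 arrest (interval 38.7 to 61.2) and 40.5 over 53 in the embryo (35.4 to 57.8), where all DHS have 50.0 by construction. The highest quintile of scores held 5 of 35 in L1 arrest (14.3%, against 20.0%) and 8 of 53 in the embryo (15.1%, against 20.0%). The lowest held 10 of 35 in L1 arrest (28.6%, against 20.0%) and 7 of 53 in the embryo (13.2%, against 20.0%).

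Of the 5 genes with the highest sites in each stage, 3 were the same. After nlp-38, the highest in L1 arrest were nlp-40 at the 93.5th percentile (I:11381-11495, an intron site), nlp-21 at the 83.3rd (III:11393401-11393550), nlp-42 at the 80.2nd (V:18908141-18908290) and nlp-4 at the 77.0th (I:10517101-10517250). In the embryo they were nlp-40 at the 97.1st, from the same intron site, nlp-15 at the 95.2nd, nlp-21 at the 93.0th, nlp-4 at the 86.6th and nlp-14 at the 85.2nd. The genes nlp-4, nlp-21 and nlp-40 were thus among the 5 highest of each stage. Those of L1 arrest alone were nlp-38 and nlp-42, and those of the embryo alone were nlp-15 and nlp-14.

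Shared sites were then ranked among the shared sites of their own stage, 14249 in L1 arrest and 14247 in the embryo. This sets aside the sites found in 1 list. For the 29 nlp pairs, whose sites carry nlp symbols in both tables, the median difference, L1 arrest minus embryo, was -0.94 percentile points, against -1.19 for all pairs. The L1 arrest rank was the higher in 14 (48.3%, against 45.1%). It was over 25 points higher in 5 (17.2%, against 10.8%) and over 25 points lower in 2 (6.90%, against 9.14%). The ranks of the family were split about evenly between the stages, and a few sites stood far apart.

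The largest move was at the nlp-38 site 422 bp from the gene, at 91.5 in L1 arrest and 29.5 in the embryo, a difference of 62.0 points. The nlp-9 site 1754 bp away followed with 63.4 in L1 arrest and 6.55 in the embryo (56.8 points), although its partners overlap by only 70 bp. The second intron site of nlp-40 had 63.7 in L1 arrest and 7.16 in the embryo (56.5 points). The first intron site of nlp-40 held its place, at 93.0 in L1 arrest and 94.8 in the embryo. The second stood above the middle in L1 arrest and near the bottom of the shared sites in the embryo. In the whole noncoding lists this second site stood at the 65.8th percentile in L1 arrest and the 26.5th in the embryo.

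The distant nlp-6 site, 4829 bp away and at identical coordinates in both lists (X:17657481-17657630), had 70.7 in L1 arrest and 14.8 in the embryo (55.9 points). The nlp-9 site touching the gene had 66.3 in L1 arrest and 34.9 in the embryo (31.5 points). These 5 pairs lay in all 3 location classes and at 4 genes.

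In the other direction the largest difference among the 29 pairs was at nlp-34, with 11.8 in L1 arrest and 61.5 in the embryo (-49.7 points), followed by the intron piece of nlp-30, with 4.19 in L1 arrest and 31.3 in the embryo (-27.1 points). Both genes belong to the epidermal group. Outside the 29 pairs, the embryo site of nlp-19, whose L1 arrest partner is assigned to K09C8.2, had 5.99 in L1 arrest and 41.7 in the embryo (-35.7 points). Next among the pairs came the promoter sites of nlp-14, with 51.0 in L1 arrest and 74.0 in the embryo (-23.0 points), and of nlp-18, with 55.1 in L1 arrest and 70.5 in the embryo (-15.4 points). The nlp-9 site at 1194 bp had 0.393 in L1 arrest and 14.6 in the embryo (-14.2 points), so nlp-9 held moves in both directions.

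**Figure D4:**
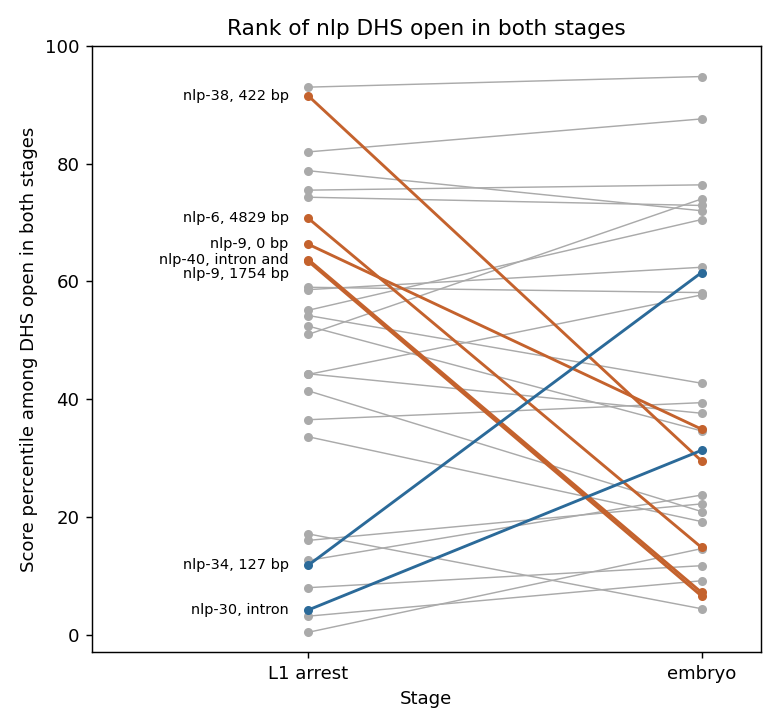
Score percentile (vertical axis) of the 29 nlp DHS pairs open in both stages, in L1 arrest (left) and in the embryo (right). Each site is ranked among all shared sites of its stage. Each line is 1 pair, orange where L1 arrest is over 25 points higher, blue where it is over 25 points lower and grey otherwise. The 5 orange lines run downward from 91.5 to 63.4 in L1 arrest to 34.9 or less in the embryo, and the 2 blue lines belong to nlp-34 and nlp-30.

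Footprints are short stretches within a DHS that are shielded from cutting, as under a bound protein. At least 1 lay in 31 of 35 nlp DHS in L1 arrest, 88.6% (interval 73.3 to 96.8) against 84.0% of all, and in 40 of 53 in the embryo, 75.5% (interval 61.7 to 86.2) against 82.0%. The embryo share followed width: it was 31 of 34 among sites of full width (91.2%, against 93.3%) and 9 of 19 among the shorter ones (47.4%, against 51.6%). In L1 arrest 25 of 26 full-width sites held one (96.2%, against 92.9%). Sites with any footprint had a median of 2.00 in L1 arrest and 2.00 in the embryo.

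Within the 29 pairs the embryo had more footprints in 13 (44.8%, against 50.8%), the number was equal in 11 (37.9%, against 28.5%) and L1 arrest had more in 5 (17.2%, against 20.8%). The widest gap was at the nlp-14 promoter site, with 2 in L1 arrest and 5 in the embryo. The 5 pairs over 25 points higher in L1 arrest were mixed in footprint number. The second nlp-40 intron site had 2 in L1 arrest and 0 in the embryo, and the nlp-9 site at 1754 bp had 2 and 1. The nlp-38 site, with the largest move of rank, had 3 in L1 arrest and 4 in the embryo. The nlp-6 site and the nlp-9 site touching the gene each had 2 in both stages. Position was compared within the stretch that both DHS of a pair cover. There 40 of 52 L1 arrest footprints overlapped an embryo footprint (76.9%, against 78.2% over all pairs), and 42 of 65 embryo footprints overlapped an L1 arrest one (64.6%, against 63.8%).

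Of the epidermal group nlp-24 to nlp-34, both tables listed nlp-28, nlp-29, nlp-30, nlp-31, nlp-32 and nlp-34, with 7 DHS in L1 arrest and 7 in the embryo. The genes nlp-24 to nlp-27 and nlp-33 had no entry. The genes nlp-34, nlp-31, nlp-30, nlp-29 and nlp-28 are consecutive neighbours on chromosome V in RefSeq, in that order, and nlp-32 lies on chromosome III. The group's ranks differed in direction from gene to gene.

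The promoter site of nlp-31 (V:3979741-3979890) was identical in both lists and had 52.4 in L1 arrest and 34.6 in the embryo among shared sites, a difference of 17.8 points. Its neighbour nlp-34, whose site lies next to it at V:3979261-3979410 in L1 arrest, stood the other way, as given above. The nlp-32 site 814 bp away had nearly the same rank in both, with 74.3 in L1 arrest and 72.9 in the embryo, and so did the intron piece of nlp-29, with 59.0 in L1 arrest and 58.1 in the embryo. So within a few kilobases of chromosome V, sites of higher, equal and lower rank in L1 arrest stood side by side, together with the arrest-associated sites of nlp-29 and nlp-28.

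The genes that make and sense the peptides were taken from lists of processing and receptor genes. Of 19 processing and vesicle genes matched in RefSeq, 16 had noncoding DHS in L1 arrest, against 38.8% of all protein-coding genes in RefSeq, and 17 in the embryo, against 52.4%. None had more in L1 arrest (against 3.86% of coding genes), and 9 had more in the embryo (against 32.9%). Equal numbers above 0 were found for 8 (against 17.4%), and egl-21 and aex-5 had no DHS in either stage. The vesicle release factor unc-31 (CAPS) had 11 DHS in L1 arrest and 14 in the embryo, and the proprotein convertase gene bli-4 had 6 in L1 arrest and 13 in the embryo. The main neuronal convertase gene, egl-3, had 2 in L1 arrest and 2 in the embryo. The genes without a DHS encode a carboxypeptidase (egl-21) and a convertase (aex-5) of peptide precursors.

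Of 10 genes for receptors with a known or proposed nlp ligand, 5 had DHS in L1 arrest, against 38.8% of coding genes. In the embryo 8 had DHS, against 52.4%. More sites were listed in L1 arrest for 1 (against 3.86% of coding genes) and in the embryo for 7 (against 32.9%). The other receptor genes, nmur-2 and npr-14, had none in either stage. The cholecystokinin-type receptor gene ckr-2 was the one with more in L1 arrest, 5 against 4 in the embryo. For the receptor of nlp-40, aex-2, there was 1 in L1 arrest and 3 in the embryo. The receptor gene ckr-1 had none in L1 arrest and 1 in the embryo.

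Genes with more DHS in L1 arrest were 5 of 30 for nlp, 0 of 26 for flp and 4 of 17 for ins. Over all genes the share was 7.35%. Arrest-associated sites were 6 of 35 for nlp, 1 of 19 for flp and 3 of 15 for ins, against 11.4% of all. These differences were not tested. The 5 nlp genes ahead in L1 arrest each hold 1 of the 6 arrest-associated nlp sites, so these counts are not separate. In L1 arrest promoter sites were 42.1% for flp (interval 20.3 to 66.5) and 40.0% for ins (16.3 to 67.7). Intron sites there were 10.5% for flp (1.30 to 33.1) and 26.7% for ins (7.79 to 55.1). Both families thus lay on the same side of all DHS as nlp, although the ins intervals include the shares of all DHS. In the embryo intron sites were 18.8% for flp and 21.7% for ins, against 43.8% of all. No test was made of these shares.

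The authors also deposited lists of genes with a motif word in embryo DHS. Of the 29 nlp genes listed in the embryo, 4 were in any of the 57 lists (13.8%, interval 3.89 to 31.7), against 19.8% of all genes listed in the embryo. They were nlp-4, nlp-21, nlp-40 and nlp-42. The gene nlp-42 was in 3 noncoding DHS lists, of 32, 31 and 44 genes, and was the one gene in all 3. Of the 2184 genes in any list, 218 were in 3 or more. The lists of 32 and 31 genes had 22 genes in common, so they are not independent. Each of them shared 1 gene with the list of 44. The word of the list of 44 genes is shown because its letters match a known sequence, the internal promoter box of tRNA genes, read on the opposite strand, as background. It was

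nlp-42: GGANTCGAACC

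where N is any base and all letters are the motif as deposited. RefSeq names the tRNA pseudogene Y80D3A.t1 as the next gene after nlp-42. The deposited annotation left out tRNAs and pseudogenes, per the series design text. Which of the DHS of nlp-42 holds the word is not given in the list and was not determined here.

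Genes named later were set beside the members. Current RefSeq gives 78 genes an nlp- symbol, of which 27 stood under that symbol in the deposited tables, 20 stood there without it and 31 had no entry. Of the 78 genes, 37 had a noncoding DHS in L1 arrest (47.4%, interval 36.0 to 59.1), against 38.8% of 19983 protein-coding genes in RefSeq. In the embryo 46 had one (59.0%, interval 47.3 to 70.0), against 52.4%. Both intervals include the share of all coding genes.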

How the data were processed

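The authors called DHS with HOTSPOT version 3 over windows of 150 bp, kept those passing an IDR level of 0.1, and merged replicates by stage, per the series design text. They took genes from WormBase release 241 and called footprints with DNase2TF at an FDR of 0.05, per the same text. The submitters' processing notes name Bowtie 1.0.0, SAMtools, FastQC and ce10. The deposited score of a DHS has no stated scale, so it was used only as a percentile within a list. The deposited gene tables also give a location and a distance in bp for each DHS. Read length differed among replicates of both stages.

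Members were matched by symbol, and pathway genes by symbol through a RefSeq table (WBcel235). RefSeq also gave current names, neighbours, the background of protein-coding genes and the genes with a current nlp- symbol. Classes, overlaps of at least 1 bp, footprints per DHS (overlapping or adjoining entries merged) and exact intervals were computed with Python 3.11.15 and SciPy 1.17.1, tested on simulated data. The members and lists were chosen with earlier results of these data known. Values are given for the 10 genes with most DHS, genes with DHS in L1 arrest alone or an arrest-associated DHS, the 5 highest percentiles per stage, the 5 largest rank moves per direction, the epidermal group and peptides with a known role. Others, such as nlp-15 among embryo-alone genes, were named after their values were seen.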

Additional observations from a re-analysis of the deposited data

How the results depend on the processing

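Over 17 results, 68 alternatives were computed, of which 40 were planned and 28 were chosen after seeing the data. In 61 the value stayed within the interval of the reported one, or within 1.5 times of a count, and 7 moved. Some of the 61 could not change. No nlp entry of L1 arrest was assigned to several genes, and its 35 entries came from 35 DHS before exon removal. No arrest-associated nlp site overlapped any embryo DHS. The intervals are also wide: L1 arrest sharing counted as unchanged at 68.6%, against 82.9% as reported (66.4 to 93.4). With later nlp- symbols added, the L1 arrest promoter share also counted as unchanged, at 28.1% (17.6 to 40.8). That interval includes the share of all DHS, 18.8%, which the reported one does not. The tally is therefore a loose measure of stability. Asking for at least 2 DHS per gene left 8 nlp genes in L1 arrest and 10 in the embryo. Adding 20 genes with a later RefSeq nlp- symbol gave 40 genes in L1 arrest and 49 in the embryo. With the embryo list reduced by score to the L1 number, embryo sharing was 89.3%, since lower scores were dropped. With entries of 150 bp or wider alone, embryo sharing was 70.6% and the embryo share with a footprint 91.2%. No paired analysis was possible because the lists are merged and the stages share no replicate labels. For the same reason no replicate could be left out, and differences between stages carry no replicate error. Depth per library is not given in these lists, so a site missing from a stage was not detected there, and its absence is not shown.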

Other observations

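The 20 genes that RefSeq now gives an nlp- symbol, and that stand in the deposited tables without one, held 29 DHS in L1 arrest and 44 in the embryo. None had more in L1 arrest, against 7.35% of all genes in the tables. Equal numbers were found for 8 (40.0%, against 32.2%), and 12 had more in the embryo (60.0%, against 60.4%). Arrest-associated sites were 3 of 29 (10.3%, interval 2.19 to 27.4), against 11.4% of all and beside 6 of 35 for the 30 members. Their promoter share was 20.7% in L1 arrest (against 18.8% of all) and 22.7% in the embryo (against 19.2%). Their intron share in L1 arrest was 34.5% (interval 17.9 to 54.3), against 40.4% of all. In the embryo it was 22.7% (11.5 to 37.8), against 43.8%. The low intron share of the members in L1 arrest, 17.1%, thus had no counterpart of that size in the genes named later, and in the embryo the order of the sets was the other way. No test of either difference was made.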
